A study of Mus musculus with 8 samples.

Results

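The genes described here are 10 loci of the 2-cell-like (2C-like) program in mouse embryonic stem (mES) cells, Tcstv1, Tcstv3, Gm21761, Gm20767, Gm21818, Gm5662, Gm8300, BB287469, Gm5039 and Gm2022, out of 54146 genes in the count tables. They were selected on measured values of these same data, and matched by their GENCODE symbol. Their difference between the conditions, which the choice used, is therefore given as a description. All 10 were found in both tables and all 10 passed the minimum of 20 unique molecular identifiers (UMIs, each marking 1 captured RNA molecule) over both libraries. Tcstv1, Gm21761, Gm20767, Gm21818 and Tcstv3 lie on chromosome 13 and are called the Tcstv set, and Gm8300, BB287469, Gm2022, Gm5662 and Gm5039 lie on chromosome 12 and are called the Eif1a-like set.

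E14 mES cells, which the labels call derived from the inner cell mass, were grown on gelatin with mouse embryonic fibroblast feeders in LIF/2i medium for 2 days, either untreated (control) or with CX-5461, an inhibitor of RNA polymerase I and so of rRNA synthesis. The labels give no dose or time for CX-5461 in these libraries. Single cells were captured with 10x Genomics 3′ chemistry. The labels list 4 samples per condition, but the cells of a condition stand in 1 table without a sample of origin and the study names 1 biological replicate, so that each condition is 1 library, no test between conditions was possible and no p-value is given. Barcodes carry running names in both tables, and shared barcodes could not be counted. After the study's filter (a minimum of 500 UMIs, with mitochondrial genes giving no more than a 0.2 share), 3767 control cells with 49483868 UMIs and 4697 CX-5461 cells with 68745851 UMIs were kept, at a median of 12987 and 14213 UMIs per cell, out of 3838 and 4922 barcodes. The study states fewer cells for each condition than this filter leaves, and the sources used here do not say what else removed cells. The control library held more shallow cells, as 824 of its cells against 21 of the CX-5461 cells had fewer than 3100 UMIs. Feeder fibroblasts had not been removed: clusters with fibroblast markers such as Col1a2, Col3a1 and Dcn among their leading genes held 221 control and 166 CX-5461 cells.

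In mouse embryos the genome is first transcribed strongly at the 2-cell stage, and a small and changing fraction of mES cells passes through a state with some of the same transcripts. Tcstv genes are named after their variable expression at the 2-cell stage and encode small proteins of largely unknown function. The Eif1a-like genes are copies of the gene for eIF1A, the translation initiation factor that helps the small ribosomal subunit to scan for the start codon. Zscan4 genes, which encode proteins with a SCAN domain and zinc fingers, serve as the usual marker of the state.

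Both sets belong to larger gene clusters. In the GENCODE annotation of GRCm38, the Tcstv family held 12 genes (5 members and 7 relatives, at least 40% protein identity over 80% of the shorter protein) within 490.2 kb of chromosome 13, from 119827961 to 120318178. The Eif1a-like family held 16 genes (5 members and 11 relatives) within 829.3 kb of chromosome 12, from 87494721 to 88324026. Tcstv1 lies at chr13:119893388-119894785 (minus strand), Gm21761 at chr13:119912095-119929272 (minus), Gm20767 at chr13:120140246-120155335 (plus), Gm21818 at chr13:120172433-120173888 (plus) and Tcstv3 at chr13:120316878-120318178 (plus). Gm8300 lies at chr12:87514316-87518266 (plus), BB287469 at chr12:87816577-87820676 (plus), Gm2022 at chr12:87895370-87895804 (plus), Gm5662 at chr12:88270640-88274500 (minus) and Gm5039 at chr12:88320122-88324026 (minus). All members are annotated as protein-coding, and the coding sequence of each lies in 1 block, whereas that of Eif1ax, the X-linked gene for eIF1A, is split over 7. Members of the Tcstv set encode 169 to 171 residues, and their proteins were 85.8% to 94.7% identical in pairs. Members of the Eif1a-like set encode 144 residues, were 93.8% to 97.2% identical to each other and 90.3% to 94.4% identical to the product of Eif1ax. The window below is the 90-base stretch of coding sequence in which the Tcstv members differ most, at 17 positions, out of 58 over the whole alignment of 513 columns. It lies at chr13:119893638-119893727 (minus strand) in Tcstv1, chr13:120317934-120318023 (plus) in Tcstv3, chr13:119912296-119912385 (minus) in Gm21761, chr13:120154988-120155077 (plus) in Gm20767 and chr13:120173551-120173640 (plus) in Gm21818. Capitals mark bases that differ from the most frequent base among the members. Gm21761 and Gm20767 carried the same 90 bases here.
Tcstv1: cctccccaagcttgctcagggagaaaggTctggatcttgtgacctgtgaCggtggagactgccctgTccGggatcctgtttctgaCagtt
Tcstv3: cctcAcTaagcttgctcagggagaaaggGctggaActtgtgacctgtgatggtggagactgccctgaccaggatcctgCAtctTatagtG
Gm21761: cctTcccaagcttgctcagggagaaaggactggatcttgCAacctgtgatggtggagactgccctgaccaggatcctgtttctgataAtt
Gm20767: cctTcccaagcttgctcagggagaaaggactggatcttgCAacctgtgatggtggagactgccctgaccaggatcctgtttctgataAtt
Gm21818: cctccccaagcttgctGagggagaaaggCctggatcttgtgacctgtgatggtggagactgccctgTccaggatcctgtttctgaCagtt

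The matching window of the Eif1a-like set, with 8 variable positions of 21 over 432 coding bases, covers coding bases 201 to 290. It lies at chr12:88271699-88271788 (minus) in Gm5662, chr12:87517097-87517186 (plus) in Gm8300, chr12:87819521-87819610 (plus) in BB287469, chr12:88321192-88321281 (minus) in Gm5039 and chr12:87895570-87895659 (plus) in Gm2022. The spliced sequence of Eif1ax is set beside them, with 15 bases that differ from the most frequent member base, against 0 to 4 in the members.
Gm5662: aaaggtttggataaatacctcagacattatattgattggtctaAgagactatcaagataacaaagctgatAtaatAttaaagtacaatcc
Gm8300: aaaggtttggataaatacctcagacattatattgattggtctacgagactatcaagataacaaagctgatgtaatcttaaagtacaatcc
BB287469: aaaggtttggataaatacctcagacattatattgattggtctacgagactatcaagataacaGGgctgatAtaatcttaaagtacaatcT
Gm5039: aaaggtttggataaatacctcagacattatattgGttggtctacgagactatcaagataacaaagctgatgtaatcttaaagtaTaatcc
Gm2022: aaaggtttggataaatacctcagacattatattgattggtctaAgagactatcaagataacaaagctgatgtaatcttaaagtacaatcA
Eif1ax: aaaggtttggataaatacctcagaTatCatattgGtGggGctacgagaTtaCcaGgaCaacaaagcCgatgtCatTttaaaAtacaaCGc

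Likeness at the 3′ end matters more for these counts, since 10x reads start there, and it differed between pairs. BB287469 and its relative Gm4027 were identical over the last 300 bases of their transcripts and over a run of 947 bases in all. Gm5662 and Gm2016 shared a run of 226 bases within those 300, and Gm21761 and Gm20767 one of 116. Gm2022 is annotated by its coding sequence alone, without untranslated ends, and there shared runs of 163 bases with Gm2035, 153 with Gm8332 and 117 with Gm2056. The longest run that Tcstv1 and Tcstv3 shared with each other in this stretch was 26 bases. Other Tcstv pairs were more alike there: Tcstv1 shared 78 bases with AF067061 and 66 with Gm21818, and Gm20767 shared 93 with AF067061.

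The tables flag UMIs that could come from more than one gene and leave them out of the cell counts. Over all barcodes, BB287469 had 14 such UMIs in control and 68 in CX-5461, 6.03% and 5.13% of its total, all shared with Gm4027. Gm5662 had 9 and 62, 2.23% and 2.31%, shared with Gm2016. For Gm2022 the numbers were 2 and 6, shared with Gm8332 and Gm2056. Gm21761 and Gm20767 shared 9 in CX-5461, Gm8300 had 2 and Gm5039 had 3, all in CX-5461. Tcstv1, Tcstv3 and Gm21818 had none. How the pipeline could assign most UMIs of BB287469 and Gm4027 to one of them despite identical 3′ ends cannot be read from the files, and the levels of single copies are uncertain for this reason.

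Every member had a higher level in the CX-5461 library than in the control library. Summed over the 10 genes, 1574 control UMIs, or 31.8 CPM (UMIs scaled to a common library total, 95% Poisson interval 30.3 to 33.4), stood against 11376 CX-5461 UMIs, or 165.5 CPM (162.5 to 168.5). This is a 5.20-fold difference (4.93 to 5.49). It was 8.91-fold (7.94 to 10.0) in the Tcstv set and 4.26-fold (4.01 to 4.53) in the Eif1a-like set, so that the Tcstv set supplied 20.3% of member UMIs in control and 34.7% in CX-5461. A single control cell held 694 of the 1574 UMIs, and without the strongest cell of each library the ratio over all members was 8.15 (7.6 to 8.74). Leaving out the strongest cell of each set moved the Eif1a-like ratio to 7.13 (6.58 to 7.74) and the Tcstv ratio to 10.6 (9.22 to 12.2). When CPM was taken per cell and averaged, the sets no longer stood apart, with log2 ratios of 1.92 (Eif1a-like) and 1.95 (Tcstv) in place of 2.09 and 3.15. Intervals here and below cover counting error only and say nothing of how replicate cultures vary.

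**Figure D1:**
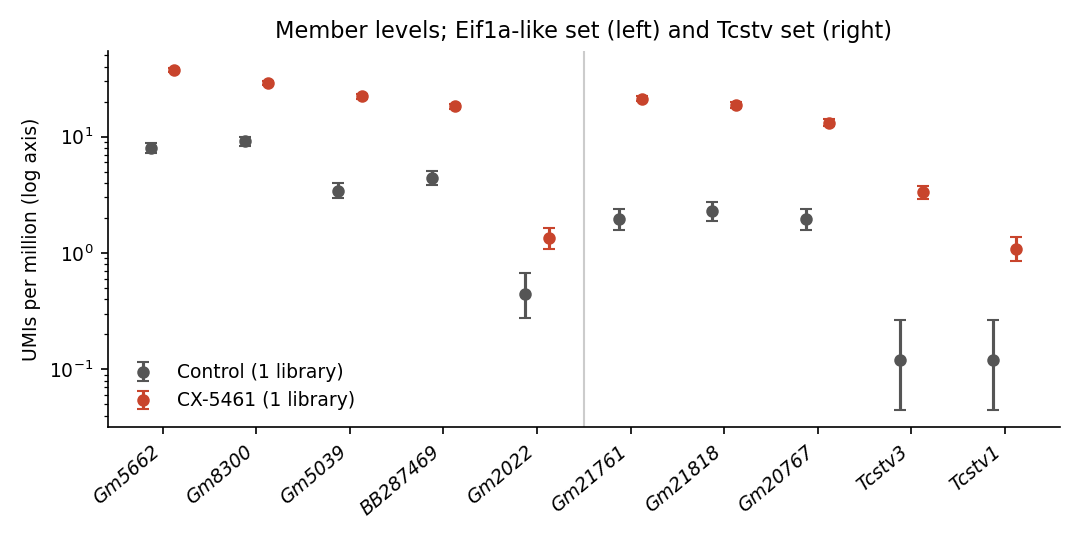
Level of each member in CPM (log axis), 1 library per condition, with the gene symbols along the horizontal axis and bars for the exact 95% Poisson interval. Every CX-5461 point lies above the control point of the same gene, and no pair of intervals overlaps.

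All 10 members were past a 2-fold CPM ratio, where 25.0% of the 18723 genes with at least 20 UMIs were. Because the members were chosen for this contrast, nothing is read from the comparison of these shares. The median log2 ratio was 0.40 over all tested genes and 2.72 over the members, and relative to all genes the members' differences are smaller by the former value. By ratio, the members ranked between 209 (Tcstv3) and 2670 (Gm2022) of the 18723 genes. Near the 2-fold threshold, none of the members lay just inside it: the lowest ratio was 3.01. As 10x UMIs mark transcript ends, levels of different genes need no scaling by length, but they depend on how uniquely each 3′ end maps. They also depend on where the 3′ end is annotated. Gm2022 is annotated over 435 bases, without untranslated ends, and the rest of the Eif1a-like set over 1840 to 1873. Whether reads past the annotated end of Gm2022 were missed was not tested, so its low level and share are uncertain.

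In the Tcstv set, Gm21761 had 97 UMIs (1.96 CPM) in control and 1451 (21.1 CPM) in CX-5461, a ratio of 10.8 (8.76 to 13.4). Gm21818 went from 113 to 1285 UMIs, or 2.28 to 18.7 CPM, and Gm20767 from 97 to 908, or 1.96 to 13.2 CPM. Their ratios were 8.19 (6.75 to 10.0) and 6.74 (5.46 to 8.40). These 3 unnamed loci, not the named Tcstv genes, carried most transcripts of the set. Tcstv3 had 6 UMIs in control and 228 in CX-5461, a ratio of 27.4 with an interval from 12.4 to 75.3. On the log2 scale this is 4.77, and it was 2.71 after thinning cells to 3100 UMIs and 3.36 as a mean over cells. Tcstv1 had 6 and 75, a ratio of 9.0 (3.95 to 25.3). The control values of both rest on 1 cell, which held all 6 UMIs of Tcstv1 and 5 of the 6 of Tcstv3.

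In the Eif1a-like set, Gm5662 had 394 control UMIs (7.96 CPM) and 2576 CX-5461 UMIs (37.5 CPM), the highest CX-5461 level of all members. Gm8300 was the highest member in control, with 451 UMIs (9.11 CPM) against 1984 (28.9 CPM). Their control intervals, 7.2 to 8.79 and 8.29 to 10.0 CPM, overlapped, while those in CX-5461 did not. Ratios were 4.71 (4.23 to 5.25) for Gm5662 and 3.17 (2.86 to 3.52) for Gm8300. Gm5039 had 170 and 1529 UMIs, a ratio of 6.47 (5.52 to 7.63), the highest of the set. BB287469 had 218 and 1248 UMIs, a ratio of 4.12 (3.57 to 4.78), and Gm2022 had 22 and 92, a ratio of 3.01 (1.87 to 5.04). The order of levels in CX-5461 was Gm5662, Gm8300, Gm5039, Gm21761, Gm21818, BB287469, Gm20767, Tcstv3, Gm2022 and Tcstv1. Within that order the intervals of Gm5039 and Gm21761 overlapped, as did those of Gm21818 and BB287469 and of Gm2022 and Tcstv1.

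The genes for eIF1A itself had other values. Eif1ax had 7421 UMIs in control and 9428 in CX-5461, a ratio of 0.914 (0.887 to 0.943), and Eif1a had 7272 and 6704, a ratio of 0.664 (0.642 to 0.686). Eif1ax was seen in 3667 CX-5461 cells at 2.57 UMIs per cell with a UMI, and its 10 strongest cells held 1.27% of its UMIs. Its transcripts were thus spread over most cells, unlike those of its copies on chromosome 12.

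Relatives outside the member list are given beside the share of 25.0% of all 18723 tested genes past 2-fold. Only 3 of the 14 with at least 20 UMIs reached that number in control alone, so that the others passed the minimum through the CX-5461 library, and the counts below support nothing. Of the 11 Eif1a-like relatives 9 had at least 20 UMIs, and all 9 were past 2-fold, with a median ratio of 5.01. Gm8332 had 133 and 1332 UMIs, more in CX-5461 than BB287469, and Gm4027 and Gm2016 reached 696 and 629. Of the 7 Tcstv relatives 5 had at least 20 UMIs and all 5 were past 2-fold, with a median ratio of 16.8. B020031M17Rik had 12 and 280 UMIs and AF067061 had 8 and 236. AF067063 had 0 UMIs in control and 2 in CX-5461, and no ratio is given.

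**Figure D2:**
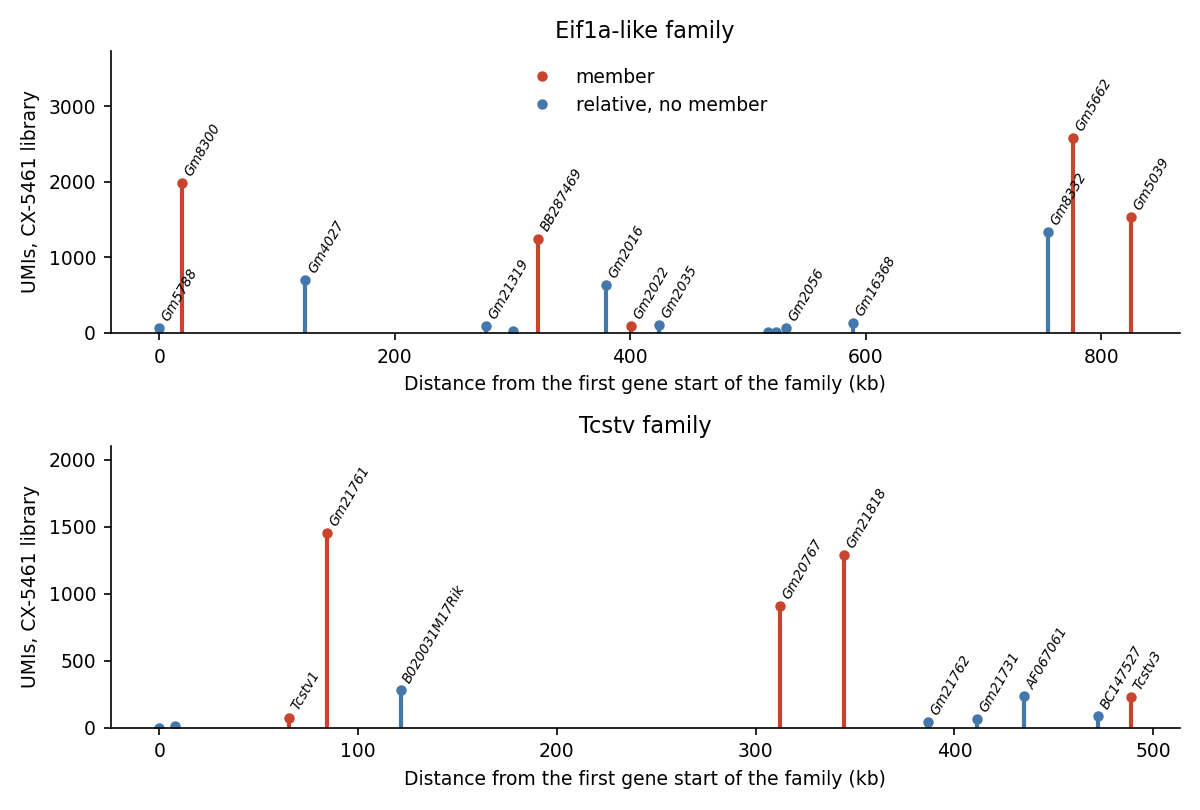
UMIs in the CX-5461 library (vertical axis) by distance in kb from the first gene start of each family (horizontal axis), with members in red and relatives outside the list in blue. Levels differ widely between copies, from 2576 UMIs for Gm5662 to 2 for AF067063. Labels are left out below 30 UMIs.

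Genes around the clusters were examined within 250 kb of a member's start. Of the 130 annotated genes found there, 18 were the relatives. On chromosome 13, 23 others were annotated, 8 without a UMI and 6 with at least 20, of which 2 were past 2-fold (25.0% of all tested genes were), both of them processed pseudogenes (Gm21378 with a ratio of 3.14 and Gm20784 with 3.43). Their median ratio was 0.971. Hmgcs1, which encodes an enzyme of sterol synthesis, had a ratio of 0.550 (0.522 to 0.580), and the zinc finger gene Zfp131 one of 1.07 (0.994 to 1.16). On chromosome 12, 89 others were annotated, 63 of them without a UMI. Of the 15 with at least 20 UMIs 7 were past 2-fold, beside the same 25.0% over all tested genes, and the median ratio was 1.63. Over both chromosomes, 15 of the 21 such genes reached 20 UMIs in control alone. Of the 7, Adck1 did, with 286 control UMIs. Gm18983, Gm1995, Gm48388, Gm16381, Gm2099 and Gm2001 did not, so that nothing is read from the count of 7. Adck1 (3.65, 3.21 to 4.16), a kinase-like gene, was among the 7 and Gm48388, an unprocessed pseudogene, had the highest ratio, 24.5 (11.1 to 67.5), whereas Ahsa1 (1.63), Snw1 (1.32) and Slirp (0.647), were not past it.

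The members' UMIs were concentrated in few cells. A member UMI was found in 92 of the control cells (2.44%, 1.97% to 2.99%), while in CX-5461 604 cells had one, 12.9% (11.9% to 13.9%). At least 5 were found in 15 and 112 cells, 0.398% (0.223% to 0.656%) and 2.38% (1.97% to 2.86%). At least 20 were found in 9 and 54 cells, 0.239% (0.109% to 0.453%) and 1.15% (0.865% to 1.5%). The 9 control cells held 90% of the library's member UMIs and the 54 CX-5461 cells held 89.4%.

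Fibroblast-like cells, which should lack these transcripts, also had single member UMIs. Exactly 1 member UMI was found in 71 control and 387 CX-5461 cells. Among fibroblast-like cells, 3 of 221 in control (1.36%, 0.281% to 3.92%) and 9 of 166 in CX-5461 (5.42%, 2.51% to 10.0%) had at least 1, at median depths of 20430 and 23434 UMIs. At 5 or more UMIs there were 1 of 166 (0.602%) in CX-5461 and 0 of 221 in control, where the exact interval reaches up to 1.66%. That 1 cell was also the only fibroblast-like cell with at least 20. The part of free RNA in single UMIs was not tested. When cells were thinned to 3100 UMIs each and shallower ones (824 and 21) dropped, a member UMI was left in 24 of 2943 control cells (0.815%, 0.523% to 1.21%). In CX-5461 it was left in 235 of 4676 (5.03%, 4.42% to 5.69%). A member UMI then remained in 2 of 166 fibroblast-like CX-5461 cells (1.20%) and in 0 of 210 fibroblast-like control cells, with an interval up to 1.74%.

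The share of strong cells differed by more between the libraries than their mean number of member UMIs. Both depend on the cut of 20 UMIs, since a cell just past it adds to the share and lowers the mean. The comparison therefore cannot tell more cells from a higher level per cell. With a cut of 5 member UMIs the share was 5.99 times and the mean 0.965 times as high in CX-5461. The share of cells with at least 20 member UMIs was 4.81 times as high in CX-5461 (2.36 to 11.1), and the mean number of member UMIs in such cells was 157.3 in control and 188.3 in CX-5461, 1.20 times as high. The control mean leans on the 1 cell with 694 UMIs: without the strongest cell of each library the means were 90.3 and 165.1, 1.83 times as high in CX-5461, and the share of strong cells was 5.31 times as high. Medians over all strong cells went the other way, 86 UMIs in the 9 control cells and 57.5 in the 54 CX-5461 cells. The 9 control cells ranged from 24 to 694 and the 54 CX-5461 cells from 20 to 1417, so that the groups overlapped over most of their range.

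The same held for most single genes with a cut of 1 UMI, and these values depend on the cut in the same way. Gm5662 was found in 30 control and 229 CX-5461 cells, a 6.12-fold difference in the share of cells, at 13.1 and 11.2 UMIs per cell with a UMI. Gm8300 (39 and 192 cells), BB287469 (27 and 164), Gm5039 (25 and 206) and Gm2022 (7 and 31) likewise differed 3.55-fold to 6.61-fold in cells and 0.857-fold to 1.09-fold in UMIs per cell with a UMI. In the Tcstv set the UMIs per cell differed more, and were higher in CX-5461 for every gene but Tcstv1. Gm21818 was found in 13 and 83 cells at 8.69 and 15.5 UMIs each, Gm20767 in 11 and 60 cells at 8.82 and 15.1, and Gm21761 in 7 and 84 cells at 13.9 and 17.3. Tcstv3 was found in 2 control cells and 16 CX-5461 cells at 3 and 14.25 UMIs each, and Tcstv1 in 1 and 15 at 6 and 5.

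Few genes were as uneven over cells as the members, but the Zscan4 copies and several relatives were. The members were chosen with earlier results of these data known, so that this is given as a description. In CX-5461 the 10 strongest cells of each gene held 48.8% (Gm5662) to 97.4% (Tcstv3) of its UMIs, against a median of 5.82% over 17568 genes with at least 20 UMIs in that library. For the 9 Zscan4 copies this share was 50.8% to 72.0%. Among relatives it was 31.5% for Gm2016, 51.3% for Gm4027, 69.2% for Gm8332 and 98.3% for AF067061. The trait is thus not particular to the members. UMIs per cell with a UMI ranged from 2.97 (Gm2022) to 17.3 (Gm21761), against a median of 1.10. At least 94.1% of genes had a lower value than any member in this measure. It is also high for broadly expressed genes: Pou5f1 had 10.7, though its 10 strongest cells held 0.862% of its UMIs. The medians over all genes were not matched for level. In control, where 8 members had at least 20 UMIs, the 10 strongest cells held 90.4% to 100% of each, against a median of 8.02%. Gm21761 and Gm2022 were seen in only 7 control cells each, so that their value of 100% was fixed. For the sum over members, the 10 strongest cells held 91.1% in control and 59.4% in CX-5461. These 10 are a larger part of the 92 control cells with a member UMI than of the 604 in CX-5461. By the strongest 1% of cells the values were 96.6% and 88.1%. The Tcstv set was more concentrated than the Eif1a-like set in CX-5461, with 79.1% against 50% in the 10 strongest cells of each set.

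**Figure D3:**
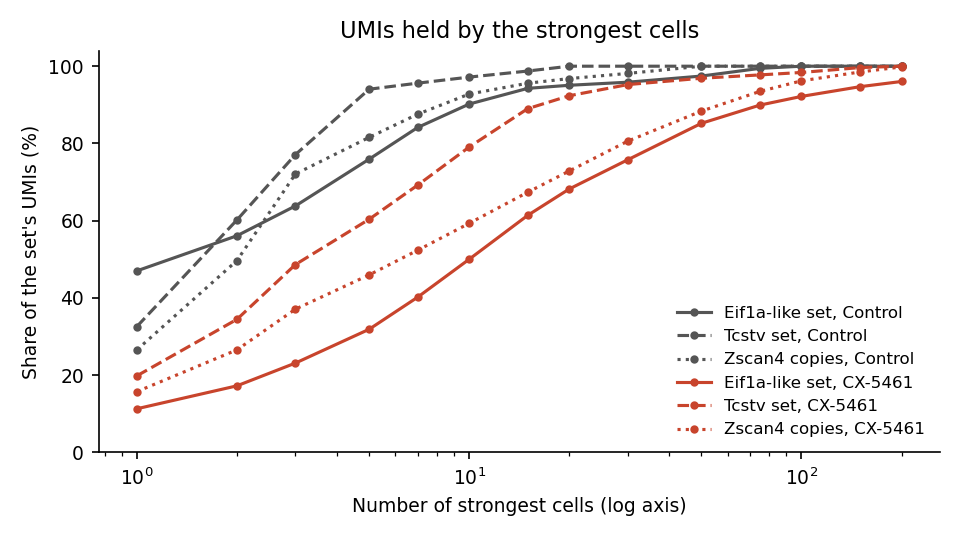
Share of a set's UMIs (vertical axis, %) held by the given number of strongest cells (horizontal axis, log), for the Eif1a-like set, the Tcstv set and the 9 Zscan4 copies in the control (grey) and CX-5461 (red) libraries. In CX-5461 the Tcstv curve runs above the Zscan4 curve, which runs above the Eif1a-like curve, and 10 cells held 79.1%, 59.3% and 50%.

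In the strongest cells the members made up a sizeable part of all transcripts. The strongest CX-5461 cell held 1417 member UMIs of 13081 in all (10.8%), the next 1224 of 9532 (12.8%) and the third 865 of 12447 (6.95%). In control the strongest cell held 694 of 17461 (3.97%), and a shallow cell of 1086 UMIs held 66 (6.08%). The median over cells with at least 20 member UMIs was 0.670% in control and 0.511% in CX-5461. Those cells were of ordinary depth, with medians of 14086 and 12430.5 UMIs, beside 12921 and 14175 in cells without a member UMI. Doublets were not called.

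The shares of the copies within these cells were as follows. Among 51 CX-5461 cells with at least 20 UMIs of the Eif1a-like set, Gm5662 made up a median of 37.5% of the set (quartiles 28.4% and 41.6%), Gm8300 27.9%, Gm5039 17.3%, BB287469 16.1% and Gm2022 0.6%. In the 9 control cells of this kind the medians were 30.7%, 34.8%, 11.4%, 17.6% and 2.0%. Gm5662 thus had the highest median in CX-5461 and Gm8300 in control, and the full ranges of each gene overlapped between the libraries. Among 20 CX-5461 cells with at least 20 UMIs of the Tcstv set, Gm21761 made up a median of 36.2%, Gm21818 29.6% and Gm20767 23.3%, beside 34.4%, 37.5% and 21.9% in 5 control cells, where Gm21818 had the highest median. Tcstv1 and Tcstv3 had medians under 1% in both, but Tcstv3 reached 33.3% of the set in 1 CX-5461 cell.

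**Figure D4:**
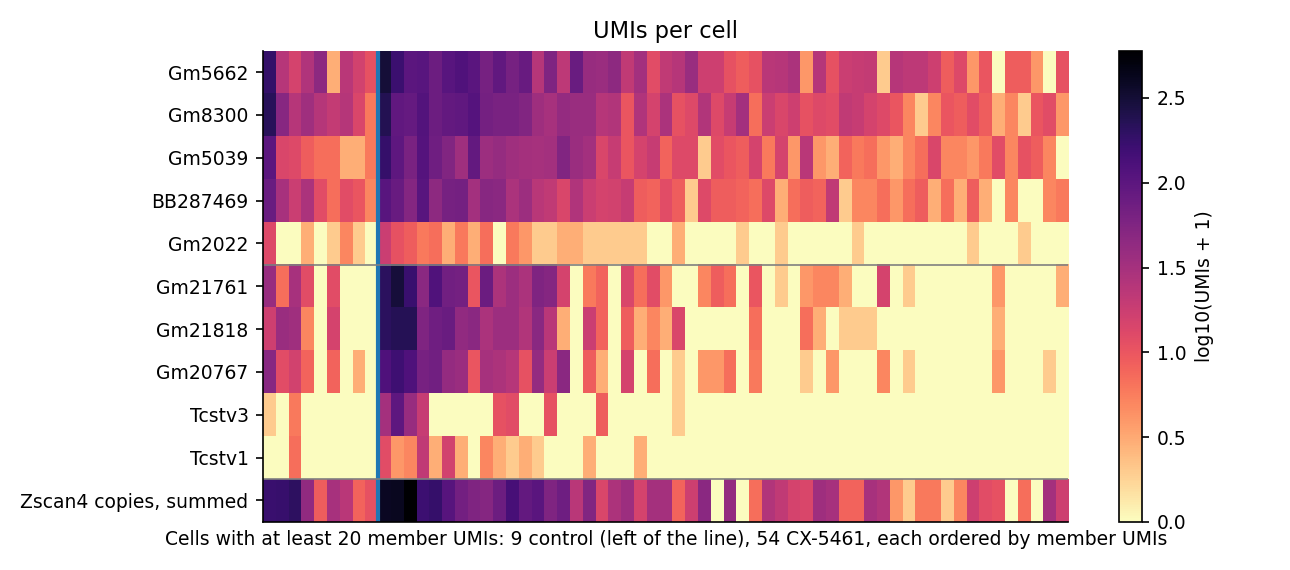
UMIs per cell, coloured as log10(UMIs + 1), of each member (rows; Eif1a-like set above, Tcstv set in the middle) and of the 9 Zscan4 copies summed (bottom row) in the 9 control and 54 CX-5461 cells with at least 20 member UMIs, ordered by member UMIs within each library. The first 4 Eif1a-like rows are filled in nearly every cell, while the Tcstv rows are empty in 3 control and 16 CX-5461 cells.

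Tcstv transcripts were found most often in cells with many Eif1a-like transcripts, but single Tcstv UMIs were not. Of the 51 CX-5461 cells with at least 20 Eif1a-like UMIs, 35 had a Tcstv UMI (68.6%, 54.1% to 80.9%). The share was 17.2% (8.59% to 29.4%) at 5 to 19 UMIs, 6.59% (2.46% to 13.8%) at 2 to 4, 1.02% (0.211% to 2.95%) at 1 and 2.62% (2.16% to 3.15%) at none. Of the 110 cells without an Eif1a-like UMI that had a Tcstv UMI, none had 5 or more. Over all 164 CX-5461 cells with a Tcstv UMI, 54 (32.9%, 25.8% to 40.7%) had an Eif1a-like UMI. With several Tcstv UMIs the share was higher, since all 34 CX-5461 cells and all 5 control cells with at least 5 of them also had Eif1a-like UMIs. In control, 6 of 9 cells with at least 20 Eif1a-like UMIs had a Tcstv UMI (66.7%, 29.9% to 92.5%). Median depths over these CX-5461 bins lay between 12537 and 15040 UMIs, lowest in the bin with the highest share.

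**Figure D5:**
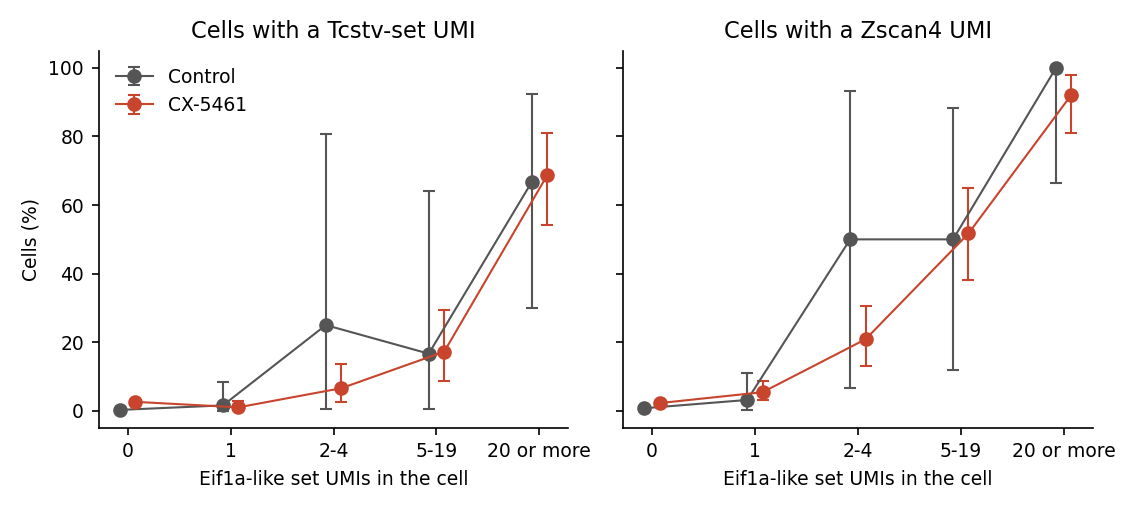
Share of cells (vertical axis, %) with at least 1 UMI of the Tcstv set (left) or of the 9 Zscan4 copies (right), by the number of Eif1a-like UMIs in the cell (horizontal axis), in control (grey) and CX-5461 (red), with exact 95% binomial intervals. Both shares in CX-5461 are highest at 20 or more UMIs, 68.6% and 92.2%, and the control intervals overlap those of CX-5461 wherever the cell has an Eif1a-like UMI.

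The 9 Zscan4 copies were themselves 3.65-fold (3.38 to 3.96) higher in CX-5461, with 749 and 3803 UMIs in 44 and 207 cells. In CX-5461, 117 cells had both a member and a Zscan4 UMI, which is 19.4% (16.3% to 22.8%) of the 604 cells with a member UMI and 56.5% (49.5% to 63.4%) of the 207 cells with a Zscan4 UMI. In control, 16 cells had both, 17.4% (10.3% to 26.7%) of 92 and 36.4% (22.4% to 52.2%) of 44. Without a member UMI, 2.20% of CX-5461 cells and 0.762% of control cells had a Zscan4 UMI. Fibroblast-like cells showed a like share, with 2 of 166 (1.20%, 0.146% to 4.28%) in CX-5461 and 4 of 221 (1.81%, 0.495% to 4.57%) in control. Both shares in cells without a member UMI lay within these intervals, and no expression is read from them. The shared cells carried most transcripts, since cells with a Zscan4 UMI held 91.5% of member UMIs in CX-5461 and 93.6% in control.

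Co-detection went up with the number of member UMIs. In CX-5461 a Zscan4 UMI was found in 4.39% (2.58% to 6.94%) of cells with 1 member UMI, 20% (12.8% to 28.9%) with 2 to 4, 50% (36.6% to 63.4%) with 5 to 19 and 92.6% (82.1% to 97.9%) with 20 or more. In control, 9 of 9 cells with 20 or more had one, 3 of 6 with 5 to 19, and 1 of 71 with a single UMI. Of the 16 CX-5461 cells with at least 20 member UMIs and no Tcstv UMI, 13 had a Zscan4 UMI, as had all 3 such control cells. Among the 54 strong CX-5461 cells 4 had no Zscan4 UMI, and 53 had more member than Zscan4 UMIs.

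Single members differed in how much of their detection fell in Zscan4 cells. In CX-5461 the share of positive cells with a Zscan4 UMI was 93.3% for Tcstv1 (14 of 15 cells), 83.9% for Gm2022 (26 of 31), 62.5% for Tcstv3 (10 of 16), 55.0% for Gm20767 (33 of 60) and 48.8% for Gm21761 (41 of 84). It was 37.4% for Gm5039 (77 of 206) and 38.9% for Gm5662 (89 of 229), with Gm21818, Gm8300 and BB287469 between 41.0% and 45.7%. Only the intervals of Tcstv1 (68.1% to 99.8%) and Gm2022 (66.3% to 94.5%) lay above those of Gm5039 (30.8% to 44.4%) and Gm5662 (32.5% to 45.5%). The order of the other members is not resolved. By UMIs the members were closer together, with 87.3% (BB287469) to 97.4% (Tcstv3) of each gene's CX-5461 UMIs in cells with a Zscan4 UMI. Most members also had other members in the same cell, from 43.4% of positive cells for Gm21818 to 100% for Tcstv1.

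Genes with a like distribution were sought by 2 measures over CX-5461 cells. Members and Zscan4 copies were left out of both rankings. By the Jaccard index (cells with both over cells with either) between a gene and any member, Gm2016 (0.302), Gm4027 (0.267) and Gm8332 (0.152) led 17410 genes seen in at least 20 cells. All 3 are Eif1a-like relatives, and all 3 share flagged UMIs with members. The next genes, Them5, Fkbp6, Krt7, Gm10184, Kpna2, Gm16344 and Esco2, had indices of 0.137 to 0.140, and all but Gm16344 were seen in over 57.0% of cells. A gene seen in every cell would score 0.129, so this measure does not separate the broadly seen ones from other broadly detected genes. That yardstick does not apply to Gm16344, which was seen in 489 cells (10.4%), 132 of them with a member UMI.

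The second measure, added after the first was seen, was the share of a gene's UMIs in the 54 cells with at least 20 member UMIs, which held 1.05% of all UMIs. The median over 14972 genes with at least 50 UMIs was 0.952%, and in 53 of them at least 0.5 of the UMIs lay there. For the Zscan4 copies the share was 69.8% (Zscan4f) to 89.5% (Zscan4a). Leading genes were Gm12800 (89 of 89 UMIs), Gm20765 (82 of 82), Gm6468 (55 of 55) and Gm21312 (55 of 55), followed by AF067061 (235 of 236), BC147527 (88 of 89) and Gm7971 (289 of 293). In the control library, which the choice of these genes did not use, Gm12800 had 5 of 5 UMIs in the 9 strong cells, Gm6468 had 6 of 6, AF067061 had 8 of 8, BC147527 had 1 of 2 and Gm7971 had 28 of 31. Gm20765 and Gm21312 had no control UMI. The 9 cells held 0.210% of all control UMIs, and no median over genes was taken there. AF067061 and BC147527 are Tcstv relatives, and the strong cells are defined by member UMIs.

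Of 31 other genes listed for the 2C program, 20 had at least 20 UMIs and 18 were past 2-fold, where 25.0% of all tested genes were, with a median ratio of 6.08, while none was lower by 2-fold. As 5 of the 20 had that many UMIs in control alone, most passed the minimum through CX-5461. Of the 20, 6 are relatives of the members, so that the list is not independent of the families. Duxf3, listed by the study as Dux/Duxf3, encodes a homeodomain factor that activates the program. It had 3 UMIs in control and 53 in CX-5461, a ratio of 12.7 (4.12 to 63.6), and 39 of the 53 lay in the 54 strong cells. Zfp352, a zinc finger gene, had 1 and 28, and all 28 lay in the strong cells. Tmem92 had 12 and 271 (194 in strong cells), and Sp110, a nuclear body gene, had 52 and 293 (181 in strong cells). The 2 genes not past 2-fold were Dppa4 (ratio 1.70, 1.61 to 1.78) and Dppa2 (1.02, 0.976 to 1.06), both regulators of the program that mES cells express broadly, with 63 of 5020 and 173 of 5878 UMIs in strong cells.

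Pluripotency transcripts were present in the strong cells. The 54 strong CX-5461 cells include 1 fibroblast-like cell, whereas such cells were left out of the cells set beside them. In CX-5461 the 54 cells had 504.2 CPM of Pou5f1 (453.7 to 558.9), beside 754.1 (747 to 761.4) in cells that had no member UMI and were not fibroblast-like, and all 54 had at least 1 Pou5f1 UMI. Sox2 stood at 90.3 CPM (69.7 to 115.1) beside 135.2, Nanog at 191.7 (161 to 226.5) beside 226, Klf4 at 111.1 (88.1 to 138.3) beside 132.8 and Zfp42 at 383.4 (339.5 to 431.4) beside 439.4. In the 9 control cells Pou5f1 stood at 673.3 CPM (524.8 to 850.6) beside 922.1 in control cells without a member UMI that were not fibroblast-like. Sox2 stood at 38.5 (10.5 to 98.5) beside 84.4, Klf4 at 67.3 (27.1 to 138.7) beside 90 and Zfp42 at 759.8 (601.6 to 947) beside 816.9, while Nanog was slightly higher, 192.4 (117.5 to 297.1) beside 184.5. For these 4 genes the control intervals included the value of the other cells. Over these cells the members made up 1.41% of all UMIs in CX-5461 and 1.36% in control.

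Promoter sequences of RefSeq (GRCm38.p6, 250 bases before to 50 after the start) were held for 2 members, Gm21761 and BB287469, and for 6 of the 18 relatives. Searched on both strands for GATTNAATC, which resembles the sequence bound by Dux and reads alike on both strands, the windows of Gm21761 and of its relative AF067061 held 1 match each, at bases 125 to 117 before the start. Of 32851 windows over all genes, 88 (0.268%) held it. The 250 upstream bases of both genes were 92.4% identical. Neither member held TGCACAC (in 4.40% of all windows) or TATAAA (13.6%), and BB287469 held no GATTNAATC. The match is a description of the letters, and binding was not measured. RefSeq's start of Gm21761 lies 15.8 kb inside the GENCODE gene. The 150 bases before each start are shown because 1 holds the match and the other member does not, at chr13:119913469-119913618 (minus) for Gm21761, chr13:120262945-120263094 (plus) for AF067061 and chr12:87816427-87816576 (plus) for BB287469, with the match in capitals.
Gm21761: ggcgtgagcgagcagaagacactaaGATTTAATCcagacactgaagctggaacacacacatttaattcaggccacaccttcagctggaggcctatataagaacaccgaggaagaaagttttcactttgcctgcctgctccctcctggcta
AF067061: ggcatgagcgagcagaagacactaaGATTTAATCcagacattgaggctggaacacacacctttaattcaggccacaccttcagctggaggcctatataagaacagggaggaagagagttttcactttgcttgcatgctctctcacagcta
BB287469: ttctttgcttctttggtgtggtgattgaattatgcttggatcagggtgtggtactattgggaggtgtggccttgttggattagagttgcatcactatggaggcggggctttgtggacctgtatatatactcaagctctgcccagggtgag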

How the data were processed

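Single-cell RNA-seq of mES cells, control and CX-5461, was analysed from 2 tables, 1 per condition. What the authors deposited are unnormalized UMI counts for each gene in each barcode, on mm10, made from 10x Genomics 3′ v2 libraries with a published droplet pipeline. The study names Bowtie as that pipeline's aligner, without a version for genes. The submitters' processing notes name Seurat 2.3.4. A further deposited column holds counts shared with other genes, as totals per gene. Depth was 3838 and 4922 barcodes with 49610287 and 69841836 UMIs.

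Cells of 500 or more UMIs and a mitochondrial share up to 0.2 were kept. UMIs were summed per library and given as CPM. Intervals are exact at 95% (Poisson for levels, Clopper-Pearson for shares and, for ratios, the binomial given the sum). The floor for a library at 0 was 3 counts. Genes with fewer than 20 UMIs over both libraries were not tested for the 2-fold call, and 54079 of 54146 identifiers matched GENCODE M21. Fibroblast-like clusters, made with scanpy 1.11.5 (2000 variable genes, 16 components, 15 neighbours, resolution 0.5), needed 3 fibroblast markers among 50 leading genes. Cells were also thinned to 3100 UMIs. edgeR 4.0.16 was used only for a TMM factor. Relatives were found with BLAST+ 2.17.0 on translated GENCODE coding sequences in place of RefSeq proteins, and coding sequences were aligned with MAFFT 7.526. The named genes are the members, the Zscan4 copies, the relatives, genes that share UMIs with members, Eif1a and Eif1ax, 5 pluripotency genes and the 10 genes with the highest Jaccard index; neighbours, listed 2C genes and genes of the second likeness measure are examples. The ratio and thinning steps were tested on simulated data: of 200 genes set to 4-fold among 18723, 200 came out past 2-fold. Members and lists were chosen with earlier results of these data known.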

Additional observations from a re-analysis of the deposited data

Results flagged for a closer look

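UMIs that the tables count as shared between genes lie outside the cell counts and were higher in the treated library. For the members they came to 25 in control and 159 in CX-5461 over all barcodes, or 0.504 and 2.28 CPM, a ratio of 4.52 (2.95 to 7.19), each counted once for every member it touches. They were 1.56% and 1.37% of the members' UMIs. As they have no cell of origin, their spread over cells was not tested.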

How the results depend on the processing

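All 10 members stayed higher in CX-5461 under each alternative that gave a value. The log2 ratio over all members was 2.38, and it was 3.03 without the strongest cell of each library, 2.20 with cells thinned to 3100 UMIs, 2.03 with the TMM factor, 2.01 with median-of-ratios size factors and 1.93 when CPM was taken per cell and averaged. The number of members past 2-fold was 10, and it fell to 8 with thinning (without Tcstv1, at 0.65, and Gm2022, at 0.84 on the log2 scale), to 9 with the mean over cells (without Gm2022, at 0.98) and to 8 with a minimum of 200 UMIs, which only 8 members reached. With at most 0.1 mitochondrial, Tcstv1 had no control UMI left and Tcstv3 had a log2 ratio of 7.23, against 4.77 as reported, 2.71 after thinning and 3.36 as a mean over cells. The log2 ratio of the Tcstv set ranged from 1.95 to 3.56 and that of the Eif1a-like set from 1.72 to 2.83 over 10 alternatives each. The share of cells with a member UMI was 5.03% in CX-5461 and 0.815% in control after thinning, and 2.38% and 0.398% with at least 5 member UMIs. The share of member UMIs in the strongest 10 cells moved in CX-5461 to 63.0% with at most 0.1 mitochondrial, 56.6% without the strongest cell and 63.1% after thinning, and was 88.1% in the strongest 1% of cells. In control these values were 85.9% without the strongest cell, 95.4% after thinning and 96.6% in the strongest 1%. Co-detection with Zscan4 copies was 32.3% in CX-5461 and 45.8% in control after thinning, and 70.5% and 80% with at least 5 member UMIs. Apart from effects that follow from fewer UMIs, cells or genes, the cause of these shifts was not tested. Flagged UMIs have no cell of origin and could be added only to levels and to the count past 2-fold, neither of which moved. Leaving out 1 library was not possible with 1 per condition. No paired analysis was possible because all cells of a condition stand in 1 table without a sample of origin.

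With 6 control UMIs each, Tcstv1 and Tcstv3 have wide intervals, and single member UMIs were also found in fibroblast-like cells. Copies that are identical at the 3′ end, above all BB287469 and Gm4027, cannot be told apart there. Since treatment and library coincide, an effect of CX-5461 and of the library cannot be told apart.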
